A study of Mus musculus with 4 samples.

Results

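Heat shock proteins, DnaJ proteins and chaperonins are the folding machinery of the cell, and their genes were described here in cultured rib chondrocytes of wild type mice and of mice in which the histone demethylase genes Kdm6a and Kdm6b were targeted for deletion. Members were found by gene symbol alone: the Hsp70, Hsp110, Hsp90, Hsp60, Hsp10 and small heat shock protein genes, the 3 classes of DnaJ genes, the subunits of the chaperonin CCT, and the transcription factor genes Hsf1 and Hsf2. The rule found 83 of the 17575 genes listed in any library, and 80 of the 83 were listed in every library. They comprised 11 Hsp70, 3 Hsp110, 3 Hsp90, 6 small heat shock protein, 2 Hsp60 or Hsp10, 9 CCT, 4 class A, 13 class B and 28 class C DnaJ genes, 2 heat shock factors and 2 genes that fit the symbol rule only. Those last are Hspb11, which encodes an intraflagellar transport protein, and Hspbp1, which encodes a nucleotide exchange factor of Hsp70. By the known location of their proteins 57 members were assigned to the cytosol and nucleus, 13 to the endoplasmic reticulum (ER), 8 to mitochondria and 5 to no compartment. The annotation terms in the deposited files name the ER for 10 of those 13 genes and for 2 other members, and mitochondria for 7 of those 8 and for 11 other members.

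The libraries came from rib cartilage of C57/Bl6 mice aged 10 days, which was digested with collagenase and its cells plated before RNA was extracted. There were 2 libraries from wild type mice and 2 from mice that carried the Col2Cre(Tg) transgene together with Kdm6a(fl/fl) and Kdm6b(fl/fl), called knockout here, in which the Col2 promoter drives Cre in cartilage cells to delete both floxed genes. The labels do not say whether the wild type mice carried Cre or floxed alleles. The series text speaks of triplicates, and 2 libraries a group were analysed here. The labels do not tie libraries to animals, so a p-value here reflects only how far these libraries spread, and that spread may be technical.

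Most chaperones work as a cycle. A DnaJ protein binds an unfolded chain, hands it to an Hsp70 and triggers the ATP hydrolysis that closes Hsp70 on it, and an exchange factor such as an Hsp110 then opens Hsp70 again. Hsp90 acts later on nearly folded clients, the ring-shaped CCT and Hsp60 enclose chains in a chamber, and small heat shock proteins hold aggregating chains without ATP. Each compartment has its own set, and cartilage cells, which secrete large amounts of collagen and proteoglycan, load the ER set heavily. Heat shock factors bind repeats of a short heat shock element and drive the cytosolic set, whereas the unfolded protein response acts on the ER set, partly through the ER stress element.

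Totals of estimated counts ran from 31178248 to 32332044 a library. The targeted genes were lower in the knockout libraries and still detected there. Kdm6a measured 52.6 and 56.9 CPM (counts relative to the library total, scaled between libraries) in wild type against 28.6 and 31.4 in knockout, which gave a log2 fold change of -0.87 with SE 0.09 and adjusted p = 0.00489 in edgeR. Kdm6b measured 131 and 118 against 51.4 and 46.2 CPM, which gave a log2 fold change of -1.35 with SE 0.09 and adjusted p = 0.00174 in edgeR. Of 8 chondrocyte markers 4 rose and 2, Comp and Matn1, fell. The summed FPKM of the 8 (fragments relative to transcript length and library total) was 7215 and 6713 in wild type and 10140 and 9831 in knockout. Col2a1 held most of this sum, at 5220 and 4767 FPKM in wild type against 7547 and 7426 in knockout. Of the other marker lists, 3 of 4 endothelial, 2 of 3 tested erythroid, 2 of 5 fibroblast and 1 of 4 osteoblast markers fell, 1 of 7 tested skeletal muscle and 1 of 4 smooth muscle markers rose, and 0 of 5 macrophage markers passed. Summed levels in wild type and in knockout were 23.9 and 21.6 against 17.5 and 14.4 FPKM for endothelium, 4.19 and 4.69 against 1.30 and 2.09 for osteoblasts, 17.2 and 14.2 against 12.9 and 12.8 for macrophages and 94.7 and 81.2 against 80.3 and 62.2 for smooth muscle. For each of these sums both knockout libraries lay under the lower wild type library. Smtn held most of the smooth muscle sum, at 89.9 and 76.3 FPKM in wild type against 72.3 and 53.2 in knockout. Of the 4 smooth muscle markers 2 had positive log2 fold changes. Cd68 held most of the macrophage sum, at 14.2 and 11.2 against 11.35 and 10.6 FPKM. Of the 5 macrophage markers 1 had a positive log2 fold change. The part of these cell types in the members' values was not tested. In bulk RNA fewer cells of a type and less RNA per cell cannot be told apart.

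Promoter sequences are shown first, because the stress-responsive chaperone genes carry known elements there. Those shown are a part of the members whose windows hold a searched element, and not all of them passed in the comparison. Windows of 300 bases, 250 before the start site and 50 from it, came from RefSeq (build GRCm38.p6) and matched 67 of the 83 members by gene number. The ER stress element was searched on both strands as CCAAT and CCACG separated by any 9 bases. It occurred in 3 members, the ER chaperone genes Hspa5, Hsp90b1 and Dnajc3, whereas 0.137% of 27025 genes with a window have it. The whole Hspa5 window (chr2:34771840-34772139, plus strand) is given with the element in capitals.
Hspa5: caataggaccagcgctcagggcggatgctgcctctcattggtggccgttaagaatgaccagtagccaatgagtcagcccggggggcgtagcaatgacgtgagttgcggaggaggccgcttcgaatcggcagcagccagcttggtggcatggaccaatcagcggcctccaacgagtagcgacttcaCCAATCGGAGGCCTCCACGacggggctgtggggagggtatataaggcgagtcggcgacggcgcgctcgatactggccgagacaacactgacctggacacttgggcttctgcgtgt
Hsp90b1 has 2 copies in opposite orientation, the upstream one (chr10:86705628-86705666, minus strand) and one nearer the start site (chr10:86705523-86705561, minus strand), and Dnajc3 has 1 (chr14:118937817-118937855, plus strand), each shown with 10 bases on either side and the element in capitals. The copies begin 65 bases before the start site in Hspa5, 212 and 107 before it in Hsp90b1 and 105 before it in Dnajc3.
Hsp90b1, upstream copy: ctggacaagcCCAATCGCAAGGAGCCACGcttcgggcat
Hsp90b1, second copy: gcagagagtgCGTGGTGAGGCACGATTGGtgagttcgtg
Dnajc3: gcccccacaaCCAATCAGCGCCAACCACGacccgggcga
The window of Dnajb9, an ER member described with these genes further on, has no such match, which says only that these letters are not in this window.

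A heat shock element was searched as alternating units of GAA and TTC, each separated from the next by any 2 bases, on both strands. Runs of 3 units were found in 4 members, Hsph1, Dnajb6, Hspd1 and Hspe1, and in 0.662% of all genes with a window. Runs of 2 units, which every run of 3 contains, were found in 18 members and in 17.0% of all genes. The 2-unit matches included Hspa1a, Hspa1b, Hspb1 and Hspb8, and none of these 4 windows holds a run of 3. The windows of Hspa1a and Hspa1b are identical at 296 of 300 positions, so the Hspa1b window (chr17:34959189-34959488, minus strand) stands for both, and the Hspb1 window (chr5:135887669-135887968, plus strand) follows. Capitals mark each run of 2 units, which begins 104 bases before the start site in Hspa1a and Hspa1b and 117 and 97 bases before it in Hspb1.
Hspa1b: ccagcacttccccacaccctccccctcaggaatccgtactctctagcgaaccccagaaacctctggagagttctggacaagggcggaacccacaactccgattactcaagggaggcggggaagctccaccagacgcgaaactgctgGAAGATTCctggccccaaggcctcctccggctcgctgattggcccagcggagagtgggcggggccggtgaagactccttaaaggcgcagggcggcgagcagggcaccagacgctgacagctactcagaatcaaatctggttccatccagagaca
Hspb1: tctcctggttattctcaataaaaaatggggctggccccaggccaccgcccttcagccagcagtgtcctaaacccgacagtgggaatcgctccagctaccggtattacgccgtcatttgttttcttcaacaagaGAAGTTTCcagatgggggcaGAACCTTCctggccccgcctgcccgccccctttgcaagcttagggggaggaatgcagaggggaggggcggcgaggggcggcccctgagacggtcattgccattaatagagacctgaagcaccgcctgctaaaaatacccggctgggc
The Hspb8 match lies just downstream of its start site (chr5:116422845-116422872, minus strand) and is shown with 10 bases on either side.
Hspb8: gaagccaggaGAAGTTTCtaggctcgcg
Hspd1 and Hspe1, whose products form the mitochondrial chaperonin and its lid, are divergent neighbours whose windows overlap, so both contain the same stretch (chr1:55088049-55088086) read from opposite strands, minus for Hspd1 and plus for Hspe1. Its capitals mark overlapping runs of 3 units.
Hspd1: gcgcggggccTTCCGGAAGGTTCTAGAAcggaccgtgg
Hspe1: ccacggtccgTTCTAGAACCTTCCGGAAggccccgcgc

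Levels are compared between genes in FPKM, which corrects for length. The members held 1.88% to 2.21% of all FPKM in a library. Of the 83, 18 averaged at least 100 FPKM, 35 lay between 10 and 100, 17 between 1 and 10 and 13 under 1, a share of 15.7% under 1 FPKM against 38.4% of all listed genes. The highest was Hspa8, the constitutive cytosolic Hsp70 known as Hsc70, at 1847 and 2029 FPKM in wild type and 1812 and 1907 in knockout. Hsp90ab1, the constitutive cytosolic Hsp90, followed at 999 and 955 against 1005 and 923 FPKM. Hspa5, the ER Hsp70 known as BiP, stood at 831 and 1117 against 589 and 602 FPKM, and so lay above Hsp90ab1 in 1 of 4 libraries. Those 3 genes and Hsp90b1, the ER Hsp90 known as Grp94, together held 48.7% to 53.2% of all FPKM of the members.

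How far 1 gene led its family differed between families. Hspa8 held 57.3% to 67.5% of the FPKM of the Hsp70 family, while the heat-inducible Hspa1b held a level 53.0 to 128 times lower than Hspa8. Hspd1, the mitochondrial Hsp60, stood at 303 and 344 against 342 and 339 FPKM, 2.00 to 2.56 times the level of its lid gene Hspe1. Among DnaJ genes the highest were Dnajb9, an ER protein known as ERdj4, with a mean of 128 FPKM over the 4 libraries, Dnaja2 with 70.6 and Dnajb6, a suppressor of aggregation, with 69.4. In the 28-gene class C, Dnajc7 was highest with a mean of 57.4 FPKM and 12.2% of the total of its class on average. Among the lowest members were Cct6b, a testis form of a CCT subunit, at 0.14 to 0.17 FPKM and Dnajb13 at 0.11 to 0.36. Dnajb8, Dnajc5b and Dnajc5g were each listed in 1 library, at 0.03, 0.03 and 0.06 FPKM, and not in the other 3.

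**Figure D1:**
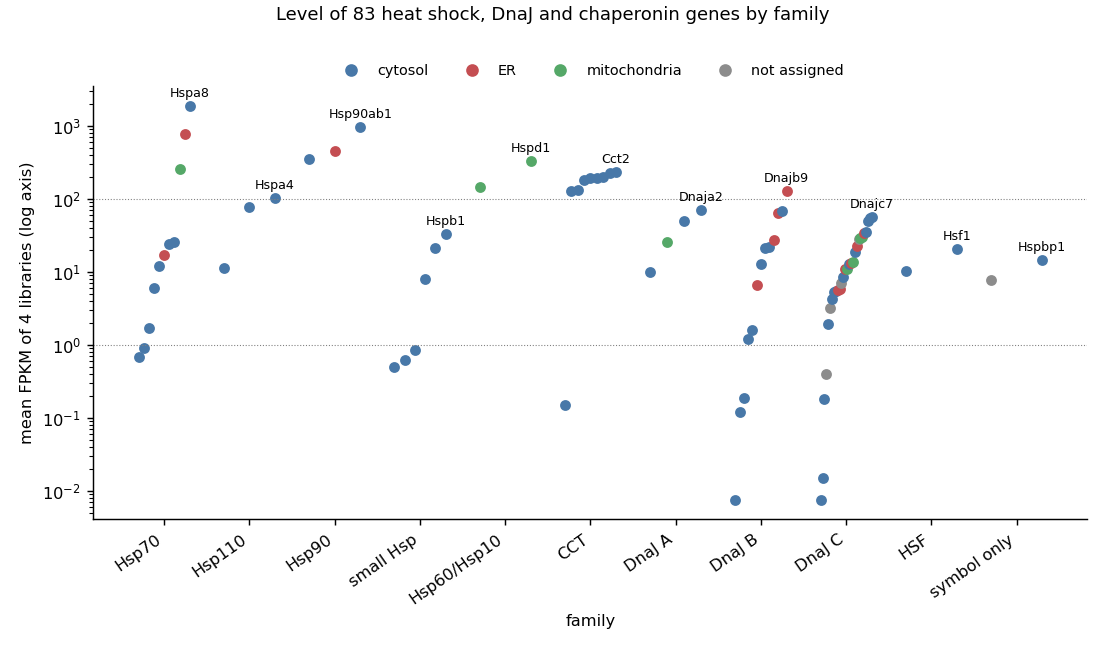
Mean FPKM over the 4 libraries (log axis) of each of the 83 members, by family on the horizontal axis and coloured by compartment, with dotted lines at 1 and 100 FPKM and the highest gene of each family named. Cytosolic Hspa8 and Hsp90ab1 and the ER genes Hspa5 and Hsp90b1 stand at the top, and 8 of 9 CCT genes lie close together above 100 FPKM.

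The comparison asked how the chaperone genes of chondrocytes differ when both demethylase genes are targeted in cartilage. A total of 77 members passed the filter on low counts, and 6 did not (Cct6b, Dnajb13, Dnajb7, Dnajb8, Dnajc5b and Dnajc5g). At an edgeR adjusted p under 0.05 over all tested genes, 1 member rose, 6 fell and 70 did not pass. The count of 7 is 9.09% of the members, beside 9.25% of all 13773 tested genes, of which 3.62% were higher and 5.63% lower in knockout, so as a group the members did not stand out from that background. The split of all called genes turned with the test, since limma on log2(FPKM + 1) called 568 higher and 512 lower against 498 higher and 776 lower in edgeR. The groups did not overlap for 52 members, 22 higher and 30 lower in knockout, or 67.5% beside 61.7% of all tested genes. Among genes averaging at least 5 CPM these shares were 66.7% of members and 64.9% of all tested genes. At that level 11.1% of members and 11.5% of all tested genes passed. Before adjustment 29.9% of members and 29.2% of all genes had a p under 0.05. The median log2 fold change was -0.04 over members and 0.004 over all genes, and with limma on log2(FPKM + 1) the members' median was on the other side of 0, at 0.015.

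The 7 that passed were 4 cytosolic stress genes (Hspa1a, Hspa1b, Hspb1 and Hspb8) and 2 ER genes (Hspa5 and Dnajb9), which fell, and the mitochondrial Dnajc15, which rose. Of the tested members, 4 of 51 in the cytosol fell and 0 rose, 2 of 13 in the ER fell and 0 rose, and 1 of 8 in mitochondria rose and 0 fell. Median log2 fold changes were -0.05 in the cytosol, -0.21 in the ER and 0.09 in mitochondria. On all 4 libraries DESeq2 called 10 members among 1655 genes, 1 higher and 9 lower, namely these 7 and Hsp90b1, Hspa13 and Hspa4l. With wild type replicate 1 or else wild type replicate 2 left out, edgeR called 0 of all genes and so 0 members, with 21 and 14 members at an unadjusted p under 0.05, while DESeq2 called 8 and 6 members there. Hspa1a, Hspa1b and Hspb8 were called by DESeq2 with each library left out in turn, in 4 of 4 such fits, Hspa5, Dnajb9 and Dnajc15 in 2 of 4 and Hspb1 in 1 of 4.

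**Figure D2:**
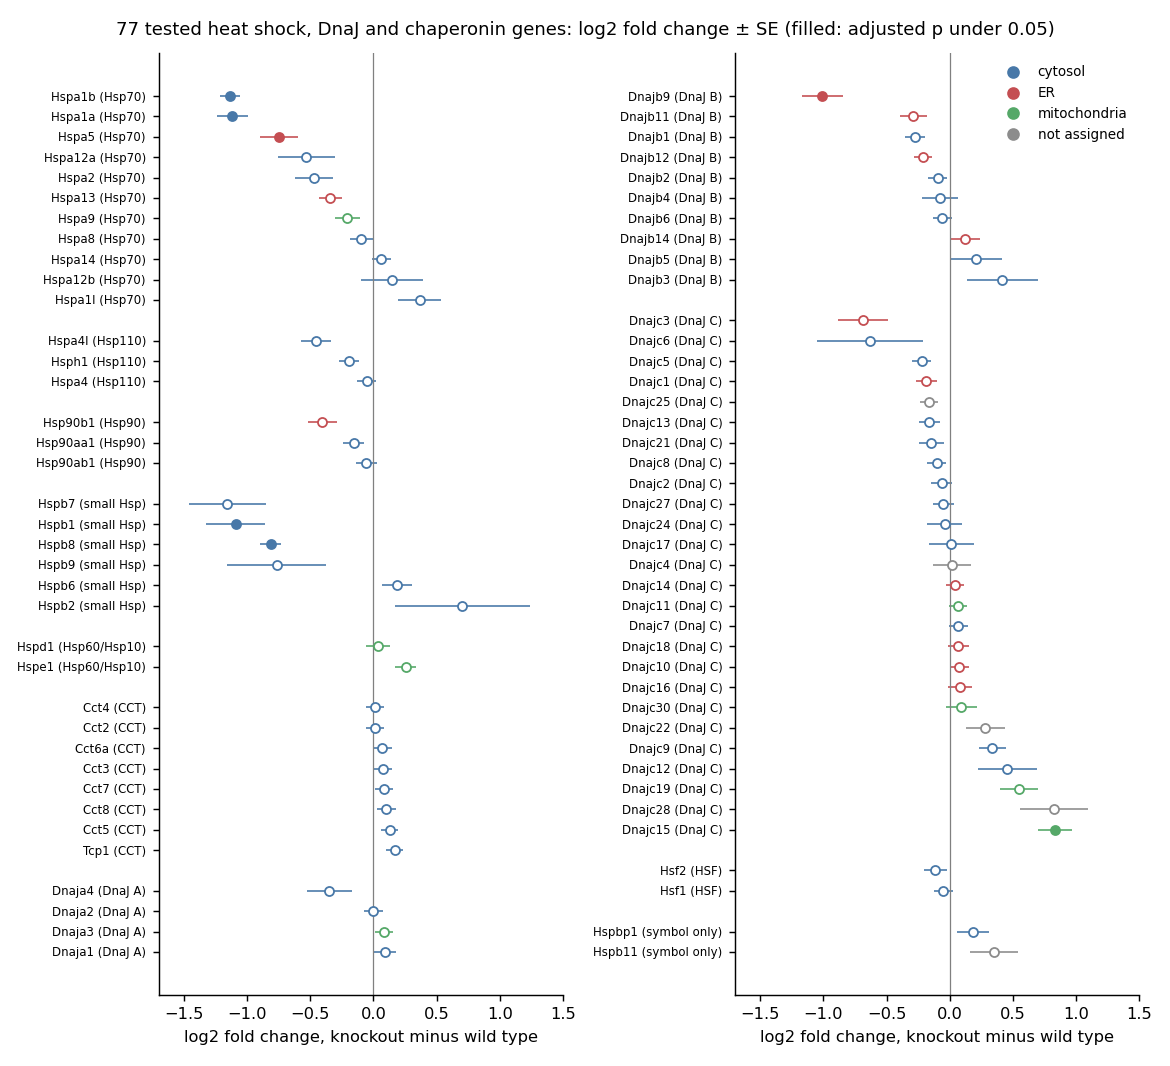
Log2 fold change, knockout minus wild type, with its SE from edgeR for the 77 tested members, grouped by family and coloured by compartment, with filled circles for an adjusted p under 0.05. Filled circles are Hspa1b, Hspa1a, Hspa5, Hspb1, Hspb8 and Dnajb9 on the lower side and Dnajc15 on the higher side, while the 8 CCT genes cluster just above 0.

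The heat-inducible cytosolic Hsp70 genes Hspa1a and Hspa1b encode near-identical proteins that are scarce in resting cells and rise under stress. Hspa1b measured 98.1 and 91.2 CPM in wild type and 44.6 and 41.4 CPM in knockout. Its knockout libraries lay well below both wild type libraries, which differed little from each other, and it fell 2.2-fold (log2 fold change -1.14 with SE 0.08, adjusted p = 0.00182 in edgeR). Hspa1a measured 41.7 and 49.9 CPM in wild type and 22.8 and 19.5 in knockout, again without overlap, and fell 2.17-fold (log2 fold change -1.12 with SE 0.12, adjusted p = 0.00676 in edgeR). The split between the pair is uncertain: 62.3% of the 50-base stretches of the longest Hspa1b transcript and 60.3% of those of Hspa1a occur in coding transcripts of other genes, mainly of each other. Summed, the pair stood at 49.8 and 48.9 FPKM in wild type and 24.3 and 21.9 in knockout, and as 1 entry it fell with a log2 fold change of -1.13 (edgeR adjusted p = 0.00181).

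The constitutive Hspa8 did not pass, at 3875 and 4369 CPM in wild type and 3753 and 3958 in knockout (log2 fold change -0.10 with SE 0.09, adjusted p = 0.514 in edgeR), and its groups overlapped. Hspa1l, a neighbour of that pair known from testis, measured 3.83 and 3.39 against 4.73 and 4.57 CPM, with a log2 fold change of 0.37 (SE 0.17) that did not pass. Hspa2, known from germ cells, measured 16.1 and 19.9 against 11.8 and 14.2 CPM and did not pass (log2 fold change -0.47, SE 0.15). The ribosome-associated Hspa14 and the distant relatives Hspa12a and Hspa12b had log2 fold changes of 0.06, -0.53 and 0.15 and did not pass. Thus 2 of 8 tested cytosolic Hsp70 genes fell and 6 did not pass.

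Some immediate early genes, a class that handling of cells can induce, were also lower in knockout. Whether handling differed between the libraries was not tested. Of 12 immediate early and dissociation genes, among them Jun and Atf3, 6 fell, 0 rose and 6 did not pass, with a median log2 fold change of -0.55. The groups did not overlap for 91.7% of this list, all lower in knockout. Of all tested genes 61.7% did not overlap in either direction, 4262 higher and 4232 lower in knockout. Dusp1 was the 1 gene of the list that was not lower in both knockout libraries in scaled CPM (log2 fold change 0.13, SE 0.09). Their summed level was 957 and 949 FPKM in wild type and 673 and 802 in knockout, and none was missing from a library. Their part in the lower Hspa1a and Hspa1b was not tested.

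**Figure D3:**
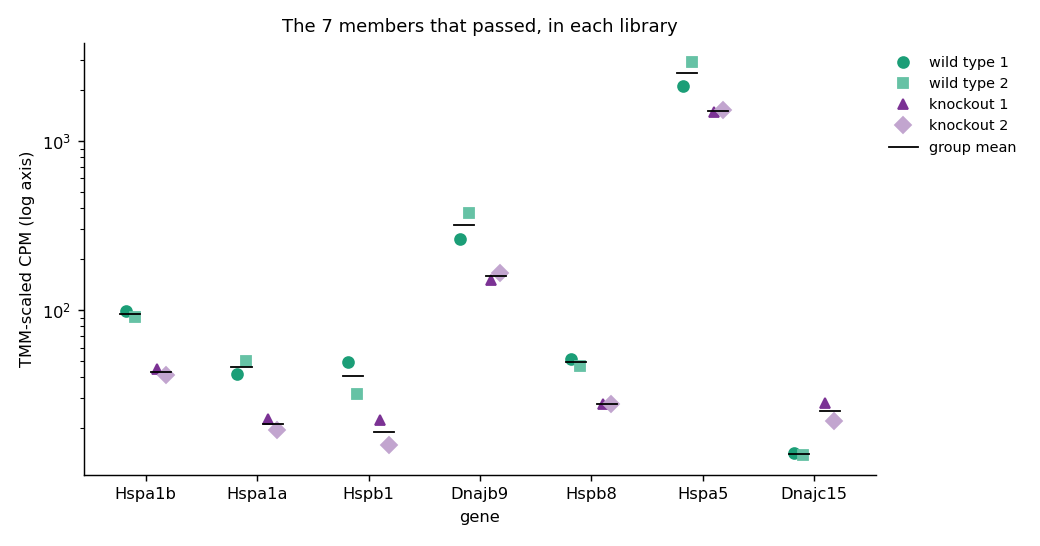
TMM-scaled CPM (log axis) of the 7 members that passed, with a symbol for each library and a black line at each group mean. For each gene the knockout symbols lie apart from the wild type symbols, and the wild type libraries of Hspb1, Dnajb9 and Hspa5 lie farther apart than those of Hspa1b and Hspb8.

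Small heat shock proteins form large oligomers that hold unfolding proteins, and several are abundant in muscle. Among the 6 tested here, 2 fell, 0 rose and 4 did not pass. Hspb8, known as Hsp22, works with the co-chaperone Bag3 to send damaged proteins to autophagy. It measured 51.2 and 46.8 CPM in wild type and 27.8 and 28.0 in knockout, and fell 1.76-fold (log2 fold change -0.81 with SE 0.08, adjusted p = 0.0049 in edgeR). The libraries of each group lay close together and the groups were clearly apart. Bag3 itself, a member of the Hsp70 co-chaperone list, measured 221 and 212 CPM in wild type and 161 and 152 in knockout and fell too (log2 fold change -0.46 with SE 0.07, adjusted p = 0.0163 in edgeR). Without wild type replicate 1 neither edgeR (adjusted p = 0.119) nor DESeq2 (0.0717) called Bag3.

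Hspb1, the gene of Hsp27 in human and Hsp25 in mouse, which also stabilises actin filaments, measured 49.2 and 31.9 CPM in wild type and 22.2 and 15.9 in knockout. Both knockout libraries were below both wild type libraries, but wild type replicate 1 was 1.54 times replicate 2. Its log2 fold change was -1.09 with SE 0.24 (adjusted p = 0.0397 in edgeR), and the value was -0.74 without wild type replicate 1 and -1.36 without wild type replicate 2. It did not pass with limma on log2(FPKM + 1), where the adjusted p was 0.065, nor in edgeR without the low-count filter, where it was 0.083. Among the rest, Hspb7, known from heart and vessels, measured 1.99 and 2.73 against 0.885 and 1.23 CPM and did not pass (log2 fold change -1.16 with SE 0.31, adjusted p = 0.0655 in edgeR). Hspb6, known from muscle as Hsp20, measured 10.6 and 10.1 against 12.2 and 11.4 CPM with a log2 fold change of 0.19 (SE 0.12), and Hspb2 and Hspb9 were under 1 CPM in every library. Of 7 tested skeletal muscle markers 1 rose and 0 fell, with a summed level of 5.64 and 5.40 FPKM in wild type and 4.60 and 15.0 in knockout, and their part in these values was not tested.

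In the ER, proteins of the secretory route fold with the help of Hspa5, its DnaJ partners and Hsp90b1. Of 13 tested ER members 2 fell, 0 rose and 11 did not pass. In both knockout libraries 8 were lower and 2 higher than in both wild type libraries. The groups thus did not overlap for 76.9% of ER members, beside 61.7% of all tested genes. Hspa5 measured 2113 and 2914 CPM in wild type and 1478 and 1516 in knockout. The knockout libraries lay close together and below both wild type libraries, of which replicate 2 was the higher, and Hspa5 fell 1.68-fold (log2 fold change -0.75 with SE 0.15, adjusted p = 0.031 in edgeR). Dnajb9, which targets misfolded ER proteins and restrains the stress sensor Ire1, measured 261 and 375 CPM in wild type and 151 and 165 in knockout. It fell 2.01-fold with no overlap (log2 fold change -1.01 with SE 0.17, adjusted p = 0.0184 in edgeR).

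Both values were larger with wild type replicate 2 than without it. The log2 fold change of Hspa5 was -0.96 without wild type replicate 1 and -0.49 without replicate 2, and that of Dnajb9 was -1.24 and -0.72. DESeq2 without wild type replicate 2 called both, with adjusted p of 0.00803 for Hspa5 and 0.000203 for Dnajb9, but it called neither without knockout replicate 1 (0.424 and 0.288) or knockout replicate 2 (0.337 and 0.159). Without the low-count filter Hspa5 did not pass in edgeR (adjusted p = 0.0665).

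Several further ER members were lower in both knockout libraries without passing. Hsp90b1, which folds receptors and integrins, measured 1258 and 1579.5 CPM in wild type and 1089.8 and 1053 in knockout (log2 fold change -0.40 with SE 0.12, adjusted p = 0.0793 in edgeR), and its value was -0.23 without wild type replicate 2. Dnajc3, known as p58IPK, a partner of Hspa5 and an inhibitor of the stress kinase Perk, measured 171 and 267 against 128 and 144 CPM (log2 fold change -0.69 with SE 0.20, adjusted p = 0.0791 in edgeR). Its wild type libraries differed 1.56-fold, and without replicate 2 the value was -0.33. With knockout replicate 2 left out edgeR called Dnajc3 (adjusted p = 0.0445). DESeq2 called Hsp90b1 (adjusted p = 0.0144) but not Dnajc3 (0.166). Of the 3 genes with an ER stress element in their windows, edgeR thus called Hspa5 alone and DESeq2 called Hspa5 and Hsp90b1.

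Hspa13, a microsomal Hsp70 relative, measured 73.2 and 85.2 against 61.1 and 63.9 CPM (log2 fold change -0.34 with SE 0.09, adjusted p = 0.0691 in edgeR). Dnajb11, the soluble partner ERdj3, measured 124 and 153 against 115 and 111 CPM (log2 fold change -0.29, SE 0.11), and the membrane proteins Dnajb12 and Dnajc1 had log2 fold changes of -0.21 and -0.19. None of these 4 passed in edgeR, and DESeq2 called Hspa13 (adjusted p = 0.0426). The other 5 ER members, Dnajc10 (the reductase ERdj5), Dnajc14, Dnajc16, Dnajc18 and Dnajb14, had log2 fold changes from 0.04 to 0.12 and did not pass.

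The ER members together summed to 1633 and 2107 FPKM in wild type and 1260 and 1271 in knockout, whereas the cytosolic members summed to 5580 and 5732 against 5621 and 5540 FPKM. Hspa5, Hsp90b1 and Dnajb9 held most of the ER sum, and 5 of 13 ER members had positive log2 fold changes. The ratio of ER to cytosolic Hsp70, Hspa5 over Hspa8, was 0.45 and 0.55 in wild type and 0.32 and 0.32 in knockout in FPKM. The ratio of ER to cytosolic Hsp90, Hsp90b1 over Hsp90ab1, was 0.46 and 0.58 against 0.40 and 0.42. For both ratios the knockout libraries were lower than either wild type library and wild type replicate 2 was the highest. It was the highest library for 7 of 13 ER members and for 22 of the 64 other tested members. The same library had the highest summed fibroblast markers, 499.1 FPKM against 332.7 in wild type replicate 1 and 187.7 and 240.7 in knockout, and 2 of 5 of those markers fell. Dcn held most of that sum, at 244 and 392 FPKM in wild type against 140 and 172 in knockout. The part of the fibroblast markers in the ER values was not tested.

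Other folding genes of the ER, which the symbol rule does not take in, were tested beside them. Of 14 tested genes 3 fell, 0 rose and 11 did not pass, with a median log2 fold change of -0.16. The 3 are 21.4% of the list, beside 5.63% of all tested genes that fell. The groups did not overlap for 64.3% of the list, beside 61.7% of all tested genes. Over all the pathway lists, which hold co-chaperones and other folding helpers, 2 of 59 tested genes rose and 4 fell. That is 10.2%, beside 9.25% of all tested genes. Hyou1, the large ER Hsp70 relative and exchange factor of Hspa5, measured 386 and 544 CPM in wild type and 269 and 296 in knockout (log2 fold change -0.72 with SE 0.16, adjusted p = 0.0419 in edgeR). Sdf2l1, a partner of Hspa5 and Dnajb11, measured 21.6 and 25.2 against 13.7 and 12.8 CPM (log2 fold change -0.82 with SE 0.12, adjusted p = 0.0129 in edgeR). Manf, a secreted stress protein that binds Hspa5, measured 177 and 241 against 134 and 133 CPM (log2 fold change -0.65 with SE 0.14, adjusted p = 0.041 in edgeR). Wild type replicate 2 was the highest library for 11 of these 14 genes. Without it the log2 fold change was -0.44 for Hyou1, -0.40 for Manf and -0.70 for Sdf2l1, and neither edgeR (adjusted p = 0.206, 0.195 and 0.19) nor DESeq2 (0.0634, 0.144 and 0.168) called any of them. Hyou1 and Manf did not pass without the low-count filter either (adjusted p = 0.0838 and 0.0829 in edgeR). Calr, the lectin chaperone calreticulin and the highest of the list at 566 to 648 FPKM, did not pass (log2 fold change -0.12, SE 0.09), nor did the collagen chaperone gene Serpinh1 (log2 fold change 0.13, SE 0.09).

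**Figure D4:**
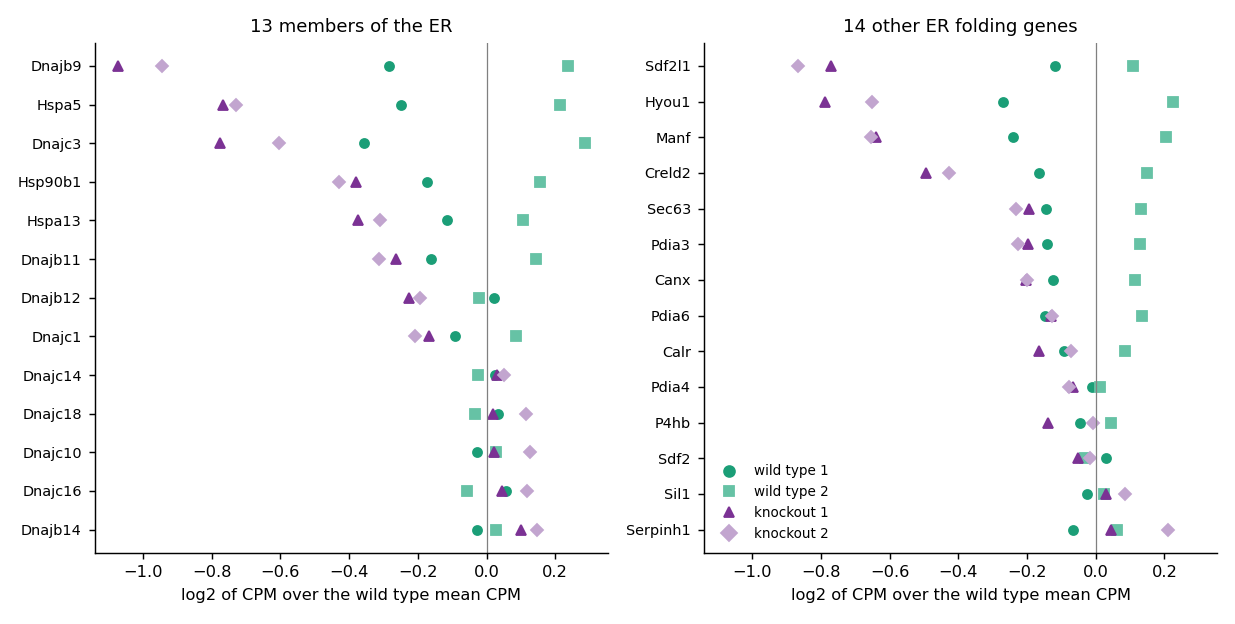
For the 13 ER members and 14 other ER folding genes, each library's CPM over the wild type mean CPM on a log2 scale, with a symbol for each library. Dnajb9, Hspa5 and Dnajc3 on the left and Sdf2l1, Hyou1 and Manf on the right lie farthest below 0 in knockout, and wild type replicate 2 is highest for 7 of 13 and 11 of 14 genes.

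Mitochondrial chaperones fold proteins imported from the cytosol. Among the 8 tested here, 1 rose, 0 fell and 7 did not pass. Dnajc15, an inner membrane protein also called MCJ that regulates import and respiratory complex I, measured 14.4 and 13.9 CPM in wild type and 28.2 and 22.1 in knockout. It rose 1.78-fold without overlap (log2 fold change 0.83 with SE 0.14, adjusted p = 0.0184 in edgeR), and knockout replicate 1 was the higher. Its close relative Dnajc19, a subunit of the import motor, measured 6.83 and 7.14 against 11.2 and 9.24 CPM and did not pass (log2 fold change 0.55 with SE 0.15, adjusted p = 0.0691 in edgeR). With limma on log2(FPKM + 1) it did, at an adjusted p of 0.0279.

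The remaining mitochondrial members did not pass. Hspa9, the mitochondrial Hsp70 mortalin, measured 773 and 919 against 728 and 739 CPM (log2 fold change -0.21, SE 0.10). Hspd1 measured 709.96 and 828 against 792 and 786 CPM (log2 fold change 0.04, SE 0.09), with overlap. Hspe1 measured 99.5 and 105 against 129 and 116 CPM (log2 fold change 0.26 with SE 0.08, adjusted p = 0.103 in edgeR), above in both knockout libraries. Dnaja3, known as Tid1, Dnajc11 and Dnajc30 had log2 fold changes of 0.08, 0.06 and 0.09. Of 10 other mitochondrial folding and import genes 1 rose, 0 fell and 9 did not pass. The one that rose was Trap1, the mitochondrial Hsp90, from 52.0 and 52.8 to 64.4 and 65.9 CPM (log2 fold change 0.31 with SE 0.07, adjusted p = 0.0411 in edgeR), while it did not pass with any 1 library left out (adjusted p of 0.104 to 0.211 in edgeR), and Clpp, a protease subunit and the highest of that list, had a log2 fold change of 0.10 (SE 0.11).

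CCT is a double ring of 8 different subunits that folds actin, tubulin and other cytosolic proteins. The 8 subunit genes expressed here were close in level, from 126 to 231 FPKM in wild type replicate 1, with a highest over lowest ratio of 1.82 to 1.96 and a coefficient of variation of 20.5% to 21.7% within a library. Cct2 was the highest on average and Cct7 the lowest. None of the 8 passed, and their log2 fold changes ran from 0.01 to 0.17 with a median of 0.08 (SEs of 0.07 to 0.08). Tcp1, the alpha subunit, had the largest, at 449.6 and 448.7 CPM in wild type and 509 and 499.5 in knockout (log2 fold change 0.17 with SE 0.07, adjusted p = 0.169 in edgeR). Cct5, the epsilon subunit, followed at 325 and 337 against 361 and 363 CPM. In 6 of the 8 genes both knockout libraries were above both wild type libraries, and Cct2 and Cct4 overlapped. That is 75% without overlap, all 6 higher in knockout. Of all tested genes 61.7% did not overlap in either direction, 4262 higher and 4232 lower in knockout.

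**Figure D5:**
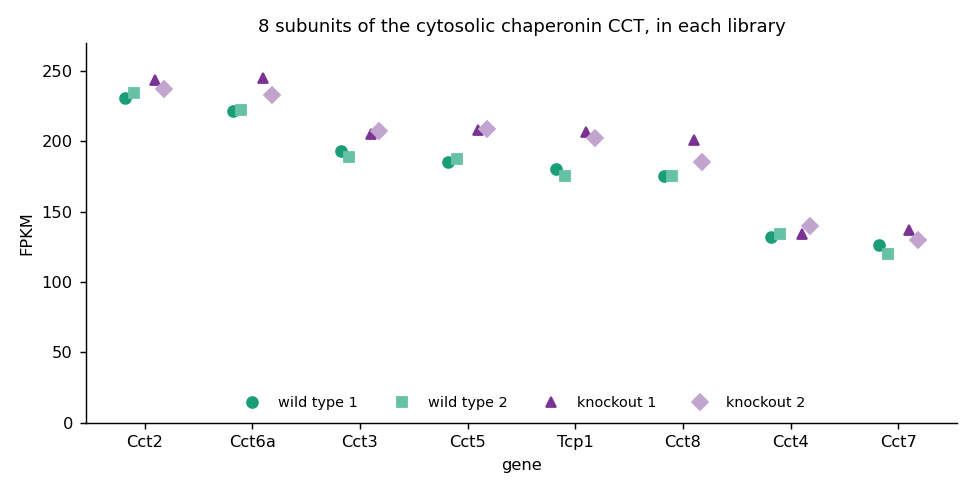
FPKM of the 8 expressed CCT subunit genes in each library, ordered by mean level, on an axis that starts at 0. Cct2 and Cct6a are highest and Cct4 and Cct7 lowest in each library, and on this scale the knockout symbols lie above the wild type symbols for all 8 genes, against 6 of 8 in scaled CPM.

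Prefoldin hands chains to CCT. Of 8 tested genes of prefoldin and chaperonin cofactors 1 rose, 0 fell and 7 did not pass, with a median log2 fold change of 0.18. Pdcl3, a phosducin-like protein that binds CCT, measured 83.7 and 81.3 against 109.1 and 108.7 CPM and rose (log2 fold change 0.40 with SE 0.07, adjusted p = 0.0206 in edgeR), but DESeq2 did not call Pdcl3 with any 1 library left out (adjusted p of 0.101 to 0.271). Pfdn5, the prefoldin gene of the highest mean FPKM, measured 48.3 and 48.9 against 49.4 and 50.9 CPM and did not pass.

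The cytosolic Hsp90 genes did not pass. Hsp90ab1 measured 2504 and 2458 CPM in wild type and 2487 and 2288.5 in knockout (log2 fold change -0.06, SE 0.08), with overlap. Hsp90aa1, the inducible form, measured 1031 and 1131 against 1001 and 941 CPM (log2 fold change -0.15, SE 0.08). Of 14 Hsp90 co-chaperone genes 0 rose and 0 fell in edgeR, with 1 at an unadjusted p under 0.05. Ptges3, known as p23 and the highest of that list, measured 345 and 352 against 347 and 336 CPM, and the list's median log2 fold change was 0.06.

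The Hsp110 genes, whose products open Hsp70, did not pass in edgeR. Hspa4 measured 476 and 509 against 475 and 473 CPM (log2 fold change -0.05, SE 0.07). Hsph1, a heat-inducible form, measured 278 and 305 against 254 and 256 CPM (log2 fold change -0.19, SE 0.08). Hspa4l measured 51.3 and 42.6 against 36.7 and 31.7 CPM, lower in both knockout libraries (log2 fold change -0.46 with SE 0.12, adjusted p = 0.0631 in edgeR). DESeq2 called it (adjusted p = 0.0231), as did edgeR without knockout replicate 1 (0.0334). Of 11 Hsp70 co-chaperone genes 1, Bag3, fell, 0 rose and 10 did not pass. Bag1, the highest of them in mean FPKM, measured 149 and 129 against 198 and 160.3 CPM (log2 fold change 0.36 with SE 0.12, adjusted p = 0.111 in edgeR). Hspbp1, an exchange factor that is a member by symbol, measured 22.1 and 17.7 against 23.3 and 21.9 CPM.

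Cytosolic DnaJ genes, which choose the clients of Hsp70, held 0 edgeR calls among 3 tested genes of class A, 6 of class B and 12 of class C, with 0, 1 and 2 at an unadjusted p under 0.05. Of the general partners of Hspa8, Dnaja1 had a log2 fold change of 0.09 (SE 0.09) and Dnaja2 one of -0.0002 (SE 0.08). Dnaja4 measured 35.1 and 31.5 against 31.1 and 21.2 CPM (log2 fold change -0.35, SE 0.18), with knockout replicate 2 the lowest. Its value was -0.65 without knockout replicate 1, where edgeR called it (adjusted p = 0.0162) as did DESeq2 (0.0324), and -0.09 without knockout replicate 2. Dnajb1, the heat-inducible Hsp40, measured 57.0 and 52.1 against 45.6 and 44.4 CPM, without overlap (log2 fold change -0.28 with SE 0.08, adjusted p = 0.0761 in edgeR). Dnajb6 measured 132 and 142 against 131 and 131 CPM (log2 fold change -0.06, SE 0.07), and Dnajc7, which binds both Hsp70 and Hsp90, 130.3 and 129 against 141 and 130.01 CPM (log2 fold change 0.07, SE 0.07). The median log2 fold changes were -0.07 for class B and -0.06 for class C.

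The heat shock factor genes had similar levels in both groups. Hsf1, the main heat shock transcription factor, measured 43.0 and 41.1 CPM in wild type and 39.9 and 41.4 in knockout (log2 fold change -0.05, SE 0.08), with overlap. Hsf2 measured 26.5 and 29.3 against 25.8 and 25.8 CPM (log2 fold change -0.11, SE 0.09), without overlap. Neither passed, and the message level of a factor does not measure its activity. Hsbp1, a small protein that binds Hsf1, measured 54.1 and 51.9 against 64.3 and 58.7 CPM and did not pass. Of the 4 genes whose windows hold 3 heat shock units, Hsph1, Dnajb6, Hspd1 and Hspe1, none passed, with log2 fold changes of -0.19, -0.06, 0.04 and 0.26, on both sides of 0. Of the 18 members with 2 units 17 were tested, and 4 fell (Hspa1a, Hspa1b, Hspb1 and Hspb8) and 13 did not pass. Of all 77 tested members 6 fell, and of all tested genes 5.63% fell. Hspa1a and Hspa1b, whose windows match at 296 of 300 positions, count here as 2 genes. Whether the share of 4 in 17 differs from other members or genes was not tested.

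Of the 5 members assigned to no compartment 0 passed. Dnajc25 measured 53.3 and 54.97 against 48.0 and 48.5 CPM (log2 fold change -0.17, SE 0.07), and Hspb11 3.57 and 3.75 against 4.15 and 5.19 CPM (log2 fold change 0.35, SE 0.19). Dnajc28 measured 0.98 and 1.02 against 1.68 and 1.87 CPM (log2 fold change 0.82, SE 0.27).

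The authors' deposited table of knockout over control listed all 83 members, of which 9 had an adjusted p under 0.05, 8 lower and 1 higher, beside 8.52% of its 17529 genes. The authors' deposited table called the 7 members named here and also Hsp90b1 (log2 fold change -0.40, adjusted p = 0.0202) and Hspa4l (log2 fold change -0.45, adjusted p = 0.0354).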

How the data were processed

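Gene expression was measured by RNA sequencing in 2 wild type and 2 knockout libraries. Reads were aligned with Bowtie2 2.2.5 to mm9, per the submitters' processing notes, and for the counting tool, annotation and strand setting the sources used here give no name. The deposited expected counts are the authors' estimated reads per gene, of which 74.2% to 74.6% a library are whole within 0.005. The deposited FPKM values are those counts scaled by the authors by transcript length and library total, per the file headers. In the authors' deposited comparison, per the file headers a DESeq2 table, the log2 fold changes, p-values and mean signal per group are the authors' own.

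Expected counts were rounded, filtered with filterByExpr, scaled by TMM and tested with edgeR 4.0.16 (R 4.3.3) by its quasi-likelihood F test over 13773 genes with Benjamini-Hochberg adjustment at 0.05, which was tested on simulated data. DESeq2 1.42.0 and limma 3.58.1 were alternatives, with other scalings, filters, pseudocounts, a replicate block and each library left out. The common biological coefficient of variation was 10.3%, and replicates of a group differed by more than counting noise. Totals of about equal depth limit precision mainly for members of a few CPM.

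Members and gene lists were chosen with earlier results of these data known. Named were the members that passed, the highest of each family and compartment, the 2 of each family with the largest log2 fold change at 5 CPM or more, and those whose replicates differed over 1.5 times. In the pathway lists the genes that passed and the gene of the highest mean FPKM in each list were named. Further members were named to account for each family, after their values were seen, as were Serpinh1, Jun, Atf3 and Dusp1. Promoter coordinates are of GRCm38.p6 and were not combined with mm9. Protein sequences were not used here, and the summed erythroid markers are not reported here.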

Additional observations from a re-analysis of the deposited data

How the results depend on the processing

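The direction of each of the 7 members that passed was the same under every alternative run, and whether it passed was not. Without a low-count filter edgeR called 720 genes (265 rose, 455 fell), 5 members and 3 pathway genes (1 rose, 2 fell). limma on log2(FPKM + 1) and log2(FPKM + 0.1) called 568 and 561 genes higher, 512 and 507 lower, 2 members higher in each and 2 pathway genes lower in each. limma with no filter called 0 genes, 0 members and 0 pathway genes, so 0 rose and 0 fell, with 4107 genes, 26 members and 16 pathway genes at an unadjusted p under 0.05. For these settings the cause was not tested.

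The alternatives for single pathway genes were added after seeing the data. With 1 library left out, in edgeR or in DESeq2 fits chosen after seeing the data, the lone library is assumed to vary like the other group. Calls ranged from 0 to 1275 genes (0 to 450 rose, 0 to 825 fell), 0 to 9 members (0 to 2 rose, 0 to 8 fell) and 0 to 6 pathway genes (0 to 2 rose, 0 to 4 fell). With wild type replicate 1 or else wild type replicate 2 left out, edgeR called 0 genes, with 3442 and 2587 at an unadjusted p under 0.05, while DESeq2 called 560 and 425. Log2 fold changes near 0 changed sign: Cct2 ranged from -0.019 to 0.046, Dnaja1 from -0.0011 to 0.19, Dnaja2 from -0.058 to 0.060, Dnajc7 from -0.0013 to 0.13, Hsp90ab1 from -0.12 to 0.014, Hspa4 from -0.11 to 9.9e-05, Hspd1 from -0.073 to 0.16, Clpp from -0.045 to 0.26 and Ptges3 from -0.059 to 0.0036. Dnaja2 was 0.010 with upper-quartile scaling, 0.0086 without the filter, and 0.035 with each of the 3 limma fits (0.03466, 0.03509 and 0.03466), and Ptges3 was 0.006318, 0.00635 and 0.006318 in those.

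With the replicate number as a block edgeR called 2316 genes (949 rose, 1367 fell), 16 members (2 rose, 14 fell) and 10 pathway genes (5 rose), with Hsp90b1 (adjusted p = 0.031) and Dnajc3 (0.00401) among the members. Same-numbered libraries deviated together with r = 0.139. With 2 libraries a group their deviations mirror each other, so both pairs give this same value. It cannot tell whether the libraries were paired, and the labels state no pairing.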

Other observations

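A minority of members share stretches of sequence with annotated transcripts of other genes. Of 82 members with a coding transcript, 13 share over 10% of their 50-base stretches with any annotated transcript of another gene (GENCODE M21), and 4 share over 10% with a coding one. The shares with any transcript were 73.2% for Hspa8, 58.5% for Hsp90aa1, 51.6% for Hspb1, 44.8% for Hspd1 and 35.8% for Dnajb6, each with 0 for coding transcripts of other genes. How the authors' counting divided such reads was not tested.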
